A study of Mus musculus with 12 samples.

Results

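Gene expression was compared between osteoclasts of female mice labelled Per1 knockout and osteoclasts of female mice labelled control, across the autosomal protein-coding genes that reached 1 FPKM in at least 3 of these 6 libraries. FPKM is the number of sequenced fragments per kilobase of gene length, scaled to the depth of the library. Of the 20716 autosomal protein-coding genes in the deposited table, 9813 met this rule, and 9312 of them reached 1 FPKM in all 6 libraries. The gene just inside the limit, Ppp1r1a, had a third-highest value of 1.00008 FPKM, and Ak8, just outside, had 0.99977 FPKM. Because the limit can be met through 1 group alone, 22 genes passed with all 3 knockout libraries and no control library at 1 FPKM, and 10 genes passed the opposite way.

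The groups were 3 female Per1 knockout libraries and 3 female control libraries, called knockout 1 to 3 and control 1 to 3 below, within a study of 12 libraries that also has 3 male knockout and 3 male control libraries. Monocytes came from bone marrow of animals aged 8 to 12 weeks, and all were driven towards osteoclasts with M-CSF and RANKL over 4 days. The library names mark the knockout allele as conditional, while the labels name neither a Cre driver nor the deleted part of the gene, and no hour of harvest is given. Nothing in the labels ties each replicate to its own animal, and p-values therefore describe only the spread among these libraries, part of which may be technical.

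Osteoclasts are the large multinucleated cells that dissolve bone. They form when precursors of the monocyte lineage receive RANKL, switch on the transcription factor NFATc1, fuse, attach through podosomes and acidify the bone surface with a vacuolar proton pump, work that draws on many mitochondria. PER1 is a repressor of the circadian clock, a loop in which CLOCK and BMAL1 switch on the Per and Cry genes and PER and CRY proteins then block CLOCK and BMAL1. Type I interferon, which cells release on sensing nucleic acids, is known to restrain osteoclast formation.

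Per1 itself, on chromosome 11, was not lower in the libraries labelled knockout. It had 4.04, 3.83 and 2.82 FPKM in knockouts 1 to 3, against 2.46, 3.33 and 3.03 FPKM in controls 1 to 3. The ranges overlapped, and the means were 3.57 ± 0.651 FPKM in knockout and 2.94 ± 0.441 FPKM in control libraries (SD, n = 3 each), or 121% of control. A two-sided exact permutation test gave p = 0.3, where 0.1 is the smallest p that 3 against 3 libraries allow. FPKM over the whole gene cannot show loss of only a part of it, so direction is given throughout by the labels.

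The cultures carried osteoclast markers in all 6 libraries: each of the 18 osteoclast identity genes was measured, with a summed level of 10890, 10712 and 13623 FPKM in knockouts 1 to 3 and 15671, 12909 and 14761 FPKM in controls 1 to 3. Depth rebuilt from the FPKM steps was 15646020 to 23120834 fragments a library, so that 3 fragments on a gene of 1 kb stand for 0.128 to 0.187 FPKM, a floor that covers counting error only. Fragments on rRNA genes took 1.42%, 1.43% and 1.57% in knockouts 1 to 3, against 0.56%, 1.34% and 0.632% in controls 1 to 3. The share was thus higher in the knockout group, though close within the pair numbered 2. Medians from a fit with this share as a term are given for described lists that it moved by more than the spread between replicates. Libraries of the same number share a batch in the labels, and differences within each number are also given.

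The strongest contrast among the 6 female libraries ran across the genotypes, and genes induced by type I interferon followed it. The first principal component held 69.2% of the variance and put knockout 1, knockout 2 and control 2 on one side, at -13.0, -20.5 and -13.2, and knockout 3, control 1 and control 3 on the other, at 14.9, 16.5 and 15.3. A list of 51 measured interferon response genes was scored in each library as the mean deviation of log2(FPKM + 1) from the mean of the 6 female libraries. The scores were 0.63, 0.89 and -0.99 in knockouts 1 to 3, against -0.87, 0.74 and -0.39 in controls 1 to 3. Each genotype thus had high and low libraries. The scores split the libraries as the component did, and some other lists below did so too. The weights of single genes on the component were not computed.

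The promoters of 3 of these genes are shown because they carry the letters known to bind interferon-activated factors of the IRF and STAT families, and a further 2, of clock genes, follow where those are described. Each window is the 250 bases before the start of the gene in RefSeq on GRCm38.p6, 5′ to 3′ on the gene's own strand, with capitals for matches on either strand to GAAA, any 2 bases (NN), GAAA (on the opposite strand TTTC, NN, TTTC). Ifit1 lies at chr19:34640639-34640888 on the plus strand, Isg15 at chr4:156200819-156201068 on the minus strand and Rsad2 at chr12:26456453-26456702 on the minus strand.
Ifit1: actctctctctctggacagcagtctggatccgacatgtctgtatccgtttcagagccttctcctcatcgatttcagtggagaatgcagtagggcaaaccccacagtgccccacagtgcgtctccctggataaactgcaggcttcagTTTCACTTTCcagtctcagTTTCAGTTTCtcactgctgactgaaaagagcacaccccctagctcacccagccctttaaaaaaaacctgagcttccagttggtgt
Isg15: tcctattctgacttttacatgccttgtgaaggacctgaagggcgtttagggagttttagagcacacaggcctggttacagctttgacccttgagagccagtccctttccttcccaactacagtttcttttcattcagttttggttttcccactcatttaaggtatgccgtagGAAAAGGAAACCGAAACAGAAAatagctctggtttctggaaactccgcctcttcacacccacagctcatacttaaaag
Rsad2: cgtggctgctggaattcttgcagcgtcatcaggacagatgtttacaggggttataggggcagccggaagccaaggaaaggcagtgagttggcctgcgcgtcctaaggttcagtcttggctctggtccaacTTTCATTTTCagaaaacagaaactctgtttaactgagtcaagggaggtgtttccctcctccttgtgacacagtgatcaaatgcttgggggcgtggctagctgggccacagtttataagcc

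Ifit1 had 2 matches, beginning 104 and 85 bases before its start, Isg15 had 3 that overlap each other, the first at 78 and the last at 66 bases, and Rsad2 had 1 at 120 bases. Of the 51 interferon response genes, 40 matched a window by symbol and 16 of those (40.0%) held the letters. The share was 3.46% of all 27025 genes with a window and 3.48% of the 7936 measured genes with a window. A gene counted if any of its windows held a match. A match describes the letters only. These 3 genes were chosen for display after their values were seen.

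Ifit1, which encodes a protein that binds foreign RNA caps, had 65.1, 97.9 and 9.75 FPKM in knockouts 1 to 3, against 10.7, 77.4 and 22.5 FPKM in controls 1 to 3. Isg15, a ubiquitin-like modifier, had 192, 236 and 37.7 FPKM in knockouts 1 to 3, against 36.5, 224 and 69.98 FPKM in controls 1 to 3. Rsad2, the antiviral enzyme viperin, had 33.04, 39.8 and 5.68 FPKM in knockouts 1 to 3, against 7.26, 38.7 and 11.7 FPKM in controls 1 to 3. In all 3 genes knockout 1, knockout 2 and control 2 were high, the other libraries were low, and the genotypes overlapped. Over the list, 51 of 51 genes had a higher knockout mean, with a median log2 difference of 0.35, yet 0 had an unadjusted p under 0.05 and 0 had groups that did not overlap. The median was 1.43, 0.12 and -0.54 within the pairs numbered 1 to 3, and between -0.04 and 0.82 when 1 library at a time was left out. Without knockout 1, knockout 2 and control 2 it was -0.35, with 0 of 51 genes higher. These libraries were left out for their scores on this same list. The sign among knockout 3, control 1 and control 3 therefore follows from their scores and is no separate result.

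Related families followed the same libraries. All 16 interferon-inducible GTPases, which attack the vacuoles of intracellular parasites, had a higher knockout mean with a median of 0.27, and the median was -0.29 without those 3 libraries. Ifi47 of this family had 49.3, 70.8 and 15.6 FPKM in knockouts 1 to 3, against 16.7, 58.6 and 22.3 FPKM in controls 1 to 3. The 12 measured IFI200 genes, sensors and regulators of nucleic acid responses, had a median of 0.40, and -0.39 without the 3 libraries. For the 24 genes of MHC class I and antigen processing the median was 0.21, and -0.15 without them. Slfn4, a Schlafen gene of myeloid cells, had 51.6, 89.6 and 2.81 FPKM in knockouts 1 to 3, against 4.17, 42.9 and 9.46 FPKM in controls 1 to 3. With the rRNA share as a term the interferon response median was 0.14. Members of these families have close copies in the mouse genome, and their single values are uncertain where counting could split reads.

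**Figure D1:**
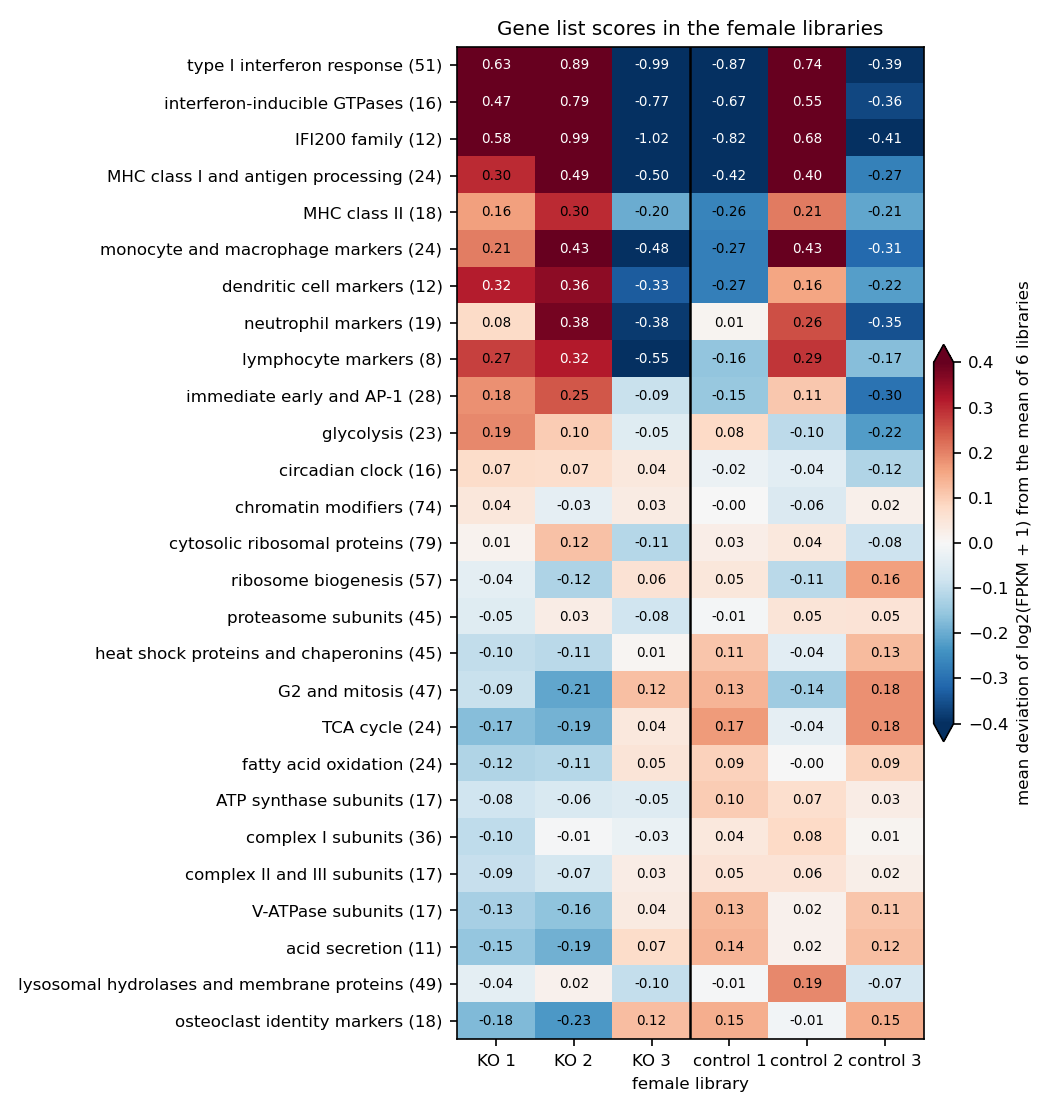
Heat map of 27 gene list scores (rows, with the number of measured genes) in the 6 female libraries (columns, knockout left of control), where a score is the mean deviation of log2(FPKM + 1) from the mean of the 6 libraries and the colour is capped at 0.4. The interferon rows are red in knockouts 1 and 2 and control 2 and blue in the others, and the TCA cycle row runs from -0.19 to 0.04 in the knockout libraries and from -0.04 to 0.18 in the control libraries.

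Across the 9813 genes, differences between genotypes were small. The median log2 difference, knockout minus control, was -0.018, the 5th and 95th percentiles were -0.24 and 0.29, and the median standard error was 0.0999. In 102 genes the difference was at least 0.5 in size and in 4 at least 1. With limma on log2(FPKM + 1) and Benjamini-Hochberg adjustment over the 12237 genes tested of any type and chromosome, 0 of the 9813 genes passed an adjusted p of 0.05 in either direction, beside a background of 0.0% of all genes tested, and the smallest adjusted p was 0.147. The voom fit of rebuilt fragments also called 0.

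Below that threshold, lower genes outnumbered higher ones. An unadjusted p under 0.05 was reached by 350 genes with a higher knockout mean (3.57%, beside 5.27% of all genes tested) and by 640 with a lower one (6.52%, beside 6.09%). The 2 groups did not overlap, with knockout higher, in 486 genes (4.95%, beside 6.38%), and with knockout lower in 728 genes (7.42%, beside 6.84%). These totals include the 22 and 10 genes that passed the FPKM limit through 1 group alone, whose separation the limit itself fixed. Counts for single lists below were not corrected for such genes, apart from Per3. The balance depended on scaling: voom gave 639 higher and 305 lower, or 67.7% higher, against 35.4% in the main fit, and median-ratio scaling gave 421 and 532. Directions of single lists below are signs against 0, to be read beside the median of -0.018 over all 9813 genes. Of these genes 5370 had a lower and 4443 a higher knockout mean. With voom the median over them was 0.015, so signs of medians near 0 depend on scaling. None of the gene groups was called by an adjusted p.

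The gene with the lowest p was Cx3cr1 on chromosome 9, the fractalkine receptor of monocytes and macrophages. It had 11.3, 13.4 and 9.93 FPKM in knockouts 1 to 3, against 22.3, 29.2 and 24.6 FPKM in controls 1 to 3. Every knockout library lay below every control library, at 45.4% of the control mean (11.5 ± 1.73 against 25.4 ± 3.48 FPKM, SD, n = 3 each). The log2 difference was -1.07 ± 0.174 (SE), with a limma adjusted p of 0.147. It was -0.92, -1.07 and -1.23 within the pairs numbered 1 to 3 and -1.16 without the 3 interferon-high libraries. Male libraries gave -1.79 for the same contrast.

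Cd5l, a lipoprotein-bound survival factor secreted by macrophages, had 14.7, 10.5 and 14.4 FPKM in knockouts 1 to 3, against 26.5, 20.5 and 25.5 FPKM in controls 1 to 3. The groups did not overlap, and the log2 difference was -0.83 ± 0.198 with a limma adjusted p of 0.291, and -0.81, -0.91 and -0.78 within the numbered pairs. H60b, a ligand of the NKG2D receptor with close copies in the genome, went the other way, with 2.34, 1.69 and 2.60 FPKM in knockouts 1 to 3, against 1.05, 0.760 and 0.718 FPKM in controls 1 to 3. Every knockout library was higher, and the log2 difference was 0.79 ± 0.130 with a limma adjusted p of 0.147. It was 0.70, 0.61 and 1.07 within the pairs, and counting between its copies makes it uncertain.

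Further genes with a higher knockout mean and groups that did not overlap were of moderate level. Jak3, the kinase of the common gamma chain cytokine receptors, had 7.05, 6.79 and 5.58 FPKM in knockouts 1 to 3, against 3.56, 4.60 and 3.65 FPKM in controls 1 to 3. Vasn, which encodes the TGF-beta-binding protein vasorin, had 7.14, 5.52 and 4.93 FPKM in knockouts 1 to 3, against 3.04, 3.99 and 3.04 FPKM in controls 1 to 3. Mapk8ip3, a scaffold that links JNK kinases to kinesin, had 6.77, 6.91 and 6.26 FPKM in knockouts 1 to 3, against 4.77, 4.84 and 5.17 FPKM in controls 1 to 3. The 3 log2 differences were 0.60, 0.65 and 0.37 with limma adjusted p-values of 0.291, 0.276 and 0.276, and each was positive in all 3 numbered pairs. Kctd17, Rgs11, Eid3, Zfp512b, Mier2 and the heme synthesis enzyme Ppox had log2 differences of 0.64, 0.66, 0.63, 0.32, 0.30 and 0.29, with limma adjusted p-values from 0.276 to 0.302.

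The lower genes of lowest p included several of high level. Anxa5, a calcium-dependent phospholipid-binding protein, had 237, 230 and 265 FPKM in knockouts 1 to 3, against 304, 290.1 and 312 FPKM in controls 1 to 3. Chp1, a calcium-binding partner of sodium-proton exchangers, had 30.4, 32 and 32.6 FPKM in knockouts 1 to 3, against 39.3, 37.2 and 37.7 FPKM in controls 1 to 3. Ccdc130, a gene linked to splicing, had 3.14, 3.06 and 2.94 FPKM in knockouts 1 to 3, against 4.41, 3.93 and 4.50 FPKM in controls 1 to 3. In each gene all knockout libraries were below all control libraries, with log2 differences of -0.31, -0.26 and -0.38 and limma adjusted p-values of 0.286, 0.291 and 0.166. Ranbp9, Kifap3, Sh3bgrl2, Serpinb6a, Hpf1 and Akr1c13 also separated downward, with log2 differences from -0.36 to -0.24, and Akr1c13 has close copies.

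Among genes with an unadjusted p under 0.05 and at least 5 FPKM in 1 group, the largest lower values after Cx3cr1 and Cd5l were those of Mt3, Ear2 and Dstn. Mt3, a metallothionein that binds zinc and copper, had 74.9, 58.99 and 81.4 FPKM in knockouts 1 to 3, against 129, 86.4 and 113 FPKM in controls 1 to 3. Dstn, which encodes the actin-severing protein destrin, had 96.3, 90.6 and 135 FPKM in knockouts 1 to 3, against 175, 115 and 175 FPKM in controls 1 to 3. Ear2, a ribonuclease gene with many copies, had 3.65, 4.74 and 1.94 FPKM in knockouts 1 to 3, against 5.92, 4.23 and 6.14 FPKM in controls 1 to 3. Only Mt3 of the 3 had groups that did not overlap, and the log2 differences were -0.59, -0.52 and -0.57 with limma adjusted p-values of 0.401, 0.388 and 0.426. On the higher side stood Rpl21, a ribosomal protein gene with many processed copies, with 27.9, 42.2 and 36.5 FPKM in knockouts 1 to 3, against 23.9, 14.9 and 17.3 FPKM in controls 1 to 3, and its value is uncertain for that reason. Tnfrsf14, the receptor HVEM, had 32.4, 39.9 and 26.7 FPKM in knockouts 1 to 3, against 17.9, 30.1 and 18.8 FPKM in controls 1 to 3, with overlapping groups.

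**Figure D2:**
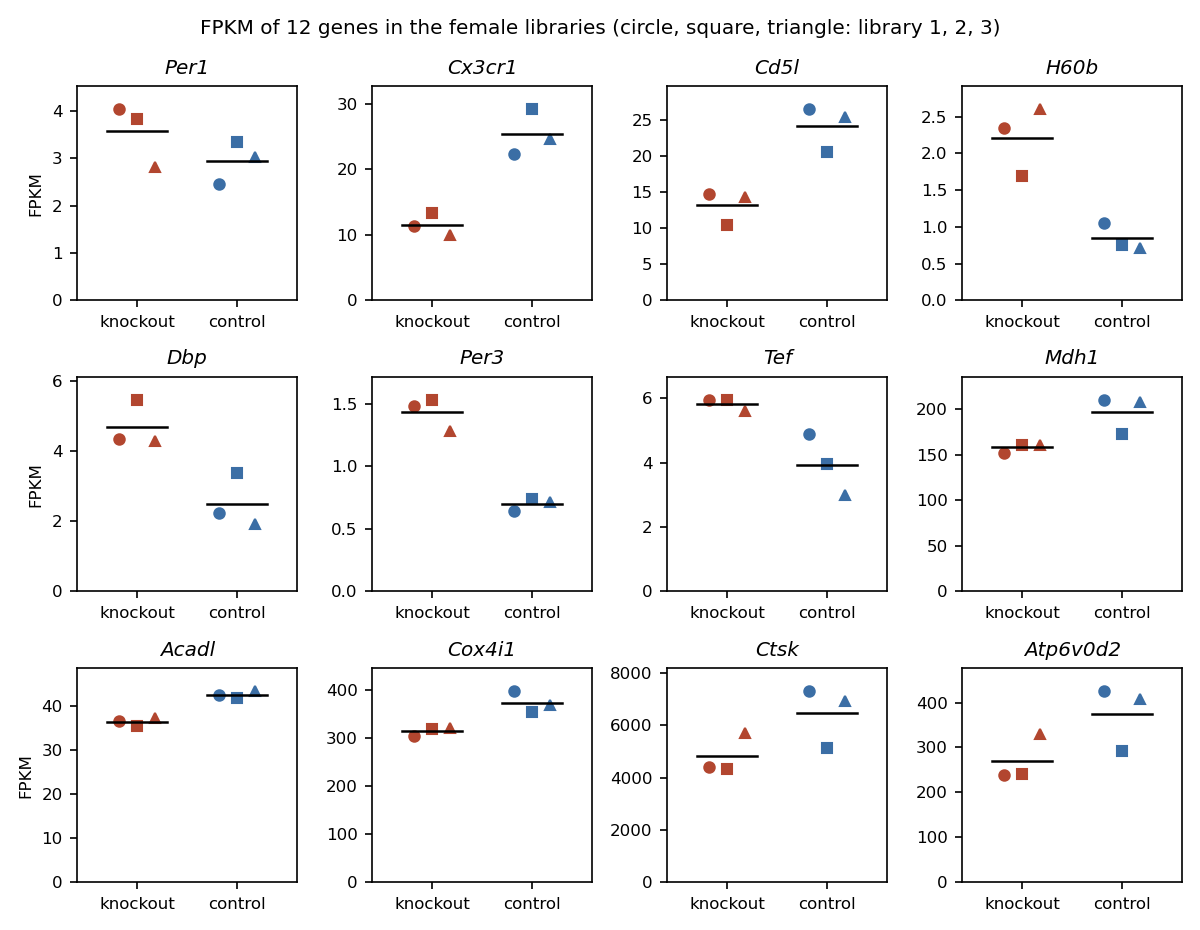
FPKM of 12 genes in each female library, with knockout left of control, a bar at the group mean and a separate axis from 0 for each gene. Cx3cr1 and Cd5l lie lower and H60b, Dbp, Per3 and Tef lie higher in all 3 knockout libraries than in any control library, while Per1, Ctsk and Atp6v0d2 overlap between the groups. Per3 reached 1 FPKM in knockout libraries only.

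The clock list held 23 genes, 16 of them measured, of which Dbp and Tef had an unadjusted p under 0.05 with a higher knockout mean, beside 3.57% of the 9813 genes. Per3 is described with them but not counted, because it reached 1 FPKM in knockout libraries only. DBP and TEF are PAR bZIP transcription factors of the clock's output, and the Dbp gene is a textbook target of CLOCK and BMAL1, as are the Per genes. The promoters of Per3 and Tef are shown because Per3 carries the letters known to be bound by DBP and TEF (TTATGTAA, either strand) and Tef those of the E-box bound by CLOCK and BMAL1 (CACGTG, which reads the same on both strands), with matches in capitals. Both are the 250 bases before the start in RefSeq on GRCm38.p6, Per3 at chr4:151044666-151044915 on the minus strand and Tef at chr15:81802423-81802672 on the plus strand.
Per3: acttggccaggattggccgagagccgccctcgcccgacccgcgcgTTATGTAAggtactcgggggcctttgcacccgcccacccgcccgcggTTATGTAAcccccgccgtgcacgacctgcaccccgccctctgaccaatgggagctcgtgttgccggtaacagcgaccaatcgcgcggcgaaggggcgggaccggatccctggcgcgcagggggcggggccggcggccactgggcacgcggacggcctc
Tef: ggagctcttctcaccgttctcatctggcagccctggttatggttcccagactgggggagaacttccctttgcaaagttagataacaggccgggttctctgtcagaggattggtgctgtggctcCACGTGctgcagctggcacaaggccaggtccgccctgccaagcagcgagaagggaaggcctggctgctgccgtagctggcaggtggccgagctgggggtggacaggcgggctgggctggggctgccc

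Per3 had 2 matches to TTATGTAA, beginning 205 and 158 bases before its start, and Tef had 1 match to CACGTG at 127 bases. TTATGTAA was found in 0.977% of all 27025 genes with a window and in 1 of the 13 clock genes with a window. CACGTG was found in 6.86% of all genes with a window, in 10.5% of the measured ones and in 4 of the 13 clock genes, namely Bhlhe41, Cry1, Per1 and Tef. Dbp had no window in the table used.

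Dbp, on chromosome 7, had 4.34, 5.47 and 4.29 FPKM in knockouts 1 to 3, against 2.25, 3.37 and 1.91 FPKM in controls 1 to 3. Per3, on chromosome 4, had 1.49, 1.53 and 1.29 FPKM in knockouts 1 to 3, against 0.642, 0.740 and 0.712 FPKM in controls 1 to 3. Tef, on chromosome 15, had 5.95, 5.94 and 5.62 FPKM in knockouts 1 to 3, against 4.88, 3.96 and 2.99 FPKM in controls 1 to 3. Dbp and Tef were higher in every knockout library than in any control library, on both sides of the interferon split. Per3 met the limit of 1 FPKM only through its knockout libraries, so its separation is not counted. The log2 differences of Dbp, Per3 and Tef were 0.72 ± 0.212, 0.52 ± 0.114 and 0.49 ± 0.138, and limma adjusted p-values were 0.366, 0.281 and 0.366. Within the numbered pairs Dbp differed by 0.72, 0.56 and 0.86, Per3 by 0.60, 0.54 and 0.42 and Tef by 0.24, 0.49 and 0.73. Without the 3 interferon-high libraries the values were 0.78, 0.45 and 0.45.

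Other clock genes differed less. The median log2 difference of the 16 genes, Per3 among them, was 0.09. It was 0.03 without the 3 libraries, 0.04 with the rRNA share as a term and -0.02 without control 3. Nr1d1, which encodes the repressor REV-ERB alpha, had 1.32, 1.26 and 2.42 FPKM in knockouts 1 to 3, against 1.70, 1.57 and 1.41 FPKM in controls 1 to 3. Knockout 3 was its highest library and knockouts 1 and 2 its lowest, with a log2 difference of 0.03. Csnk1e, a kinase that phosphorylates PER proteins, had 5.001, 5.07 and 4.548 FPKM in knockouts 1 to 3, against 4.546, 4.48 and 4.24 FPKM in controls 1 to 3. Its log2 difference was 0.11, and its groups nearly touched, with knockout 3 barely above control 1. Nr1d2, a REV-ERB repressor of Bmal1, had 9.64, 9.19 and 10.5 FPKM in knockouts 1 to 3, against 9.69, 7.59 and 9.33 FPKM in controls 1 to 3. Its groups overlapped, and those of the activator Clock, the repressors Cry1 and Cry2, and the E-box competitors Bhlhe40 and Bhlhe41 overlapped too, with log2 differences from -0.10 for Bhlhe40 to 0.13 for Cry2. With no hour of harvest in the labels, a shift in clock time between cultures and a difference in level cannot be told apart.

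The TCA cycle oxidises acetyl groups in mitochondria, and the list named after it was lower as a group. This list also holds related enzymes of the cytosol or outside the cycle itself, among them Acly, Aco1, Idh1, Mdh1, Pcx, Pdhb and Dlat. All 24 measured genes of the list had a lower knockout mean, with a median log2 difference of -0.21 beside -0.018 over all 9813 genes, and 10 of them had an unadjusted p under 0.05 (0 higher), beside 6.52% lower over the 9813 genes. In 5 the groups did not overlap with knockout lower, beside 7.42%. The list was chosen with earlier results of these data known, and no gene of it passed an adjusted p.

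Mdh1, the malate dehydrogenase of the cytosol that works with the cycle, had 152, 161 and 161 FPKM in knockouts 1 to 3, against 209.7, 172 and 207 FPKM in controls 1 to 3. Sucla2, a succinyl-CoA ligase subunit, had 17.6, 17.8 and 19.4 FPKM in knockouts 1 to 3, against 22.9, 20.5 and 22.7 FPKM in controls 1 to 3. Suclg2, its GTP-forming counterpart, had 7.29, 7.09 and 8.82 FPKM in knockouts 1 to 3, against 10.6, 8.90 and 9.35 FPKM in controls 1 to 3. In each of the 3 the highest knockout library was below the lowest control library, with log2 differences of -0.31, -0.26 and -0.28 and limma adjusted p-values of 0.382, 0.366 and 0.388. The succinate dehydrogenase subunits Sdhb and Sdhc also did not overlap, at -0.19 and -0.23.

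In Mdh2, Sdha and Cs the groups overlapped, with knockout 3 above control 2. Mdh2, the mitochondrial malate dehydrogenase, had 115, 115 and 151.3 FPKM in knockouts 1 to 3, against 171, 137 and 165 FPKM in controls 1 to 3. Sdha, the catalytic subunit of succinate dehydrogenase, had 124, 115 and 156 FPKM in knockouts 1 to 3, against 169.6, 145 and 169.9 FPKM in controls 1 to 3. Citrate synthase (Cs) had 61.2, 56.2 and 75.5 FPKM in knockouts 1 to 3, against 76.8, 68.8 and 75.4 FPKM in controls 1 to 3. The first 2 had unadjusted p-values of 0.0275 and 0.0388 by limma, and Cs one of 0.0974.

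The size of the TCA difference moved with the libraries compared, though its direction did not. The median was -0.32, -0.15 and -0.16 within the pairs numbered 1 to 3, 19 of the 24 genes were lower in all 3 pairs (2422 of 9813 over all genes), and leaving out 1 library at a time gave -0.30 to -0.16. Without the 3 interferon-high libraries it was -0.14, with 23 of 24 genes lower. The pair numbered 2, in which both libraries were interferon-high and rRNA shares were close, had a median of -0.15. With the rRNA share as a term in the fit the median was -0.16, and it stayed negative under each rescaling tried.

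**Figure D3:**
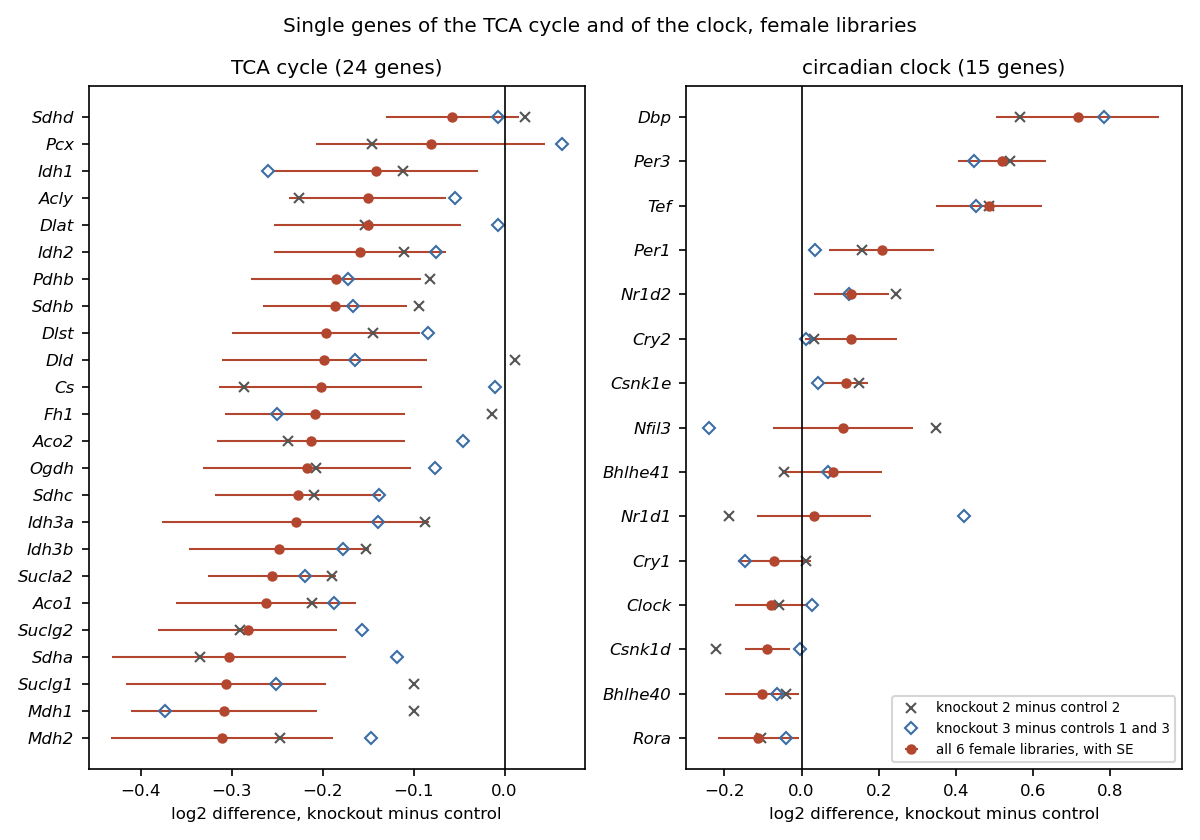
Log2 difference of FPKM + 1, knockout minus control, for each measured gene of the TCA cycle (left) and for 15 of the 16 measured clock genes (right), with filled circles and bars for the 6 female libraries and their SE, crosses for pair 2 alone and open diamonds for knockout 3 against controls 1 and 3. All 24 circles of the TCA cycle lie left of 0, and Dbp, Per3 and Tef lie right of 0.4 in all 3 readings, as does the diamond of Nr1d1 (0.42), whose circle is at 0.03. Per3 reached 1 FPKM in knockout libraries only.

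Fatty acid oxidation, which feeds the cycle, gave a median of -0.16 over 24 measured genes, 21 of them lower. An unadjusted p under 0.05 was reached by 9, all lower, beside 6.52% lower over the 9813 genes. Acadl, the long-chain acyl-CoA dehydrogenase, had 36.6, 35.6 and 37.2 FPKM in knockouts 1 to 3, against 42.5, 41.8 and 43.4 FPKM in controls 1 to 3. Etfa, which passes electrons from these dehydrogenases to the respiratory chain, had 54.9, 57.1 and 65.6 FPKM in knockouts 1 to 3, against 72.7, 66.5 and 75.5 FPKM in controls 1 to 3. Both genes were lower in every knockout library, by -0.22 ± 0.0610 and -0.27 ± 0.0785, with limma adjusted p-values of 0.366 and 0.366, and Acadl was nearly even across the pairs (-0.21, -0.23 and -0.22). Acsl5, which activates fatty acids, was lower by -0.17 without overlap. For the list, the median was -0.22, -0.15 and -0.06 within the pairs and -0.07 without the 3 libraries.

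ATP synthase, which ends the respiratory chain, had the lowest median of the 4 lists of that chain. Its 17 measured subunits had a median of -0.16, 6 with an unadjusted p under 0.05, all lower, beside 6.52% lower over the 9813 genes. The median was -0.27, -0.10 and -0.08 within the pairs and -0.11 without the 3 libraries. Atp5k, the small membrane subunit e, had 66.7, 54.7 and 51.5 FPKM in knockouts 1 to 3, against 82.6, 73.8 and 71.7 FPKM in controls 1 to 3, a difference of -0.40 with no overlap. Complexes II and III (17 genes) had a median of -0.12 with 6 lower and 0 higher at an unadjusted p under 0.05, and complex I (36 genes) had -0.09 with 7 lower and 0 higher. Ndufa10 of complex I had 27.2, 26.9 and 32.1 FPKM in knockouts 1 to 3, against 35.6, 33.7 and 35.6 FPKM in controls 1 to 3, without overlap.

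Complex IV, cytochrome c oxidase, was mixed: 7 of its 12 measured nuclear subunits were lower and the median was -0.02, close to that of all genes, but -0.13 with the rRNA share as a term. Cox4i1 had 305, 319 and 321 FPKM in knockouts 1 to 3, against 398, 354 and 368 FPKM in controls 1 to 3, without overlap, and a log2 difference of -0.24 with a limma adjusted p of 0.366. Cox8a, by contrast, had 485, 519 and 484 FPKM in knockouts 1 to 3, against 439, 532 and 381 FPKM in controls 1 to 3, with a difference of 0.15. Mitochondrial ribosomal proteins (77 genes) had a median of -0.02, which, like that of complex IV, was above 0 with quantile normalization and with voom.

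Glycolysis was not lower with them. Of 23 measured genes 17 had a higher knockout mean, the median was 0.10, and 2 were higher and 1 lower at an unadjusted p under 0.05. Over the 9813 genes 3.57% were higher and 6.52% lower by that p. Slc16a3, the lactate exporter MCT4, had 68.7, 73.1 and 57.1 FPKM in knockouts 1 to 3, against 60.1, 51.05 and 37.2 FPKM in controls 1 to 3. Slc2a1, the glucose transporter GLUT1, had 40.6, 45.3 and 35.2 FPKM in knockouts 1 to 3, against 40.5, 28.7 and 25.8 FPKM in controls 1 to 3. Both overlapped, with log2 differences of 0.44 and 0.36. Ldhb, a lactate dehydrogenase subunit, was the lower one, with 48.8, 45.7 and 65.8 FPKM in knockouts 1 to 3, against 72.5, 58.6 and 75.3 FPKM in controls 1 to 3. The list median was -0.03 without the 3 interferon-high libraries, so its sign was not kept.

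Acid secretion, by which osteoclasts dissolve bone mineral, was lower in all 11 genes of its list, with a median of -0.14. An unadjusted p under 0.05 was reached by 5 of them, beside 6.52% lower over the 9813 genes. Atp6v1g1, a stalk subunit of the proton pump, had 238, 249 and 260.4 FPKM in knockouts 1 to 3, against 343, 282 and 340.2 FPKM in controls 1 to 3. Atp6v0d2, the pump subunit that is enriched in osteoclasts and takes part in fusion, had 239, 240.5 and 330.2 FPKM in knockouts 1 to 3, against 426, 292 and 407 FPKM in controls 1 to 3. Snx10, a sorting nexin needed for osteoclast acidification, had 58.02, 61.9 and 64.3 FPKM in knockouts 1 to 3, against 77.8, 68.5 and 78.2 FPKM in controls 1 to 3. Atp6v1g1 and Snx10 did not overlap, whereas knockout 3 exceeded control 2 for Atp6v0d2. The log2 differences were -0.36, -0.47 and -0.28 with limma adjusted p-values of 0.366, 0.392 and 0.388.

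The acid secretion difference moved with the interferon split. The median of the acid secretion list was -0.30, -0.19 and 0.01 within the pairs and 0.01 without the 3 interferon-high libraries, with 6 of 11 genes then higher. The 17 measured subunits of the vacuolar proton pump likewise had a median of -0.13. Of these, 8 were lower at an unadjusted p under 0.05, beside 6.52% over the 9813 genes. The proton pump median was 0.00 without those libraries and -0.23 with the rRNA share as a term. Tcirg1, the osteoclast pump subunit a3, had 316, 305 and 334 FPKM in knockouts 1 to 3, against 309.8, 337 and 313 FPKM in controls 1 to 3, and overlapped, with a log2 difference of -0.01. In bulk samples such as these, fewer cells of a type and less RNA per cell cannot be told apart.

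Osteoclast identity genes gave the same picture. Of 18 genes 17 had a lower knockout mean, with a median of -0.19. At an unadjusted p under 0.05, 5 were lower, beside 6.52% over the 9813 genes. Ctsk, the collagen-degrading protease cathepsin K, had 4387, 4341 and 5695 FPKM in knockouts 1 to 3, against 7299, 5138 and 6902 FPKM in controls 1 to 3. Dcstamp, the fusion receptor DC-STAMP, had 111, 103 and 161 FPKM in knockouts 1 to 3, against 188, 120.1 and 189 FPKM in controls 1 to 3. Knockouts 1 and 2 were the lowest libraries for both genes, knockout 3 was above control 2, and the log2 differences were -0.42 and -0.40. Calcr, the calcitonin receptor, had 13.8, 14.2 and 18.95 FPKM in knockouts 1 to 3, against 20.1, 19.4 and 23.01 FPKM in controls 1 to 3, and Slc9b2, a sodium-proton antiporter, was lower by -0.20; both did not overlap.

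Among the rest of that list, Tnfrsf11a, the receptor for RANKL, had 31.1, 29.8 and 33.1 FPKM in knockouts 1 to 3, against 38.4, 32.2 and 39.1 FPKM in controls 1 to 3. Acp5, which encodes the tartrate-resistant phosphatase used to stain osteoclasts, had 2496, 2588 and 2944 FPKM in knockouts 1 to 3, against 2902, 3109 and 2860 FPKM in controls 1 to 3. Nfatc1 had 48.7, 41.4 and 61.7 FPKM in knockouts 1 to 3, against 56.2, 49.3 and 56.99 FPKM in controls 1 to 3. These 3 overlapped between the genotypes. The only gene of the 18 with a higher knockout mean, Siglec15, a sialic acid receptor of osteoclasts, had 51.6, 53.1 and 65.6 FPKM in knockouts 1 to 3, against 38.5, 50.2 and 43.5 FPKM in controls 1 to 3, without overlap. The list median was -0.30, -0.24 and 0.02 within the pairs and -0.04 without the 3 libraries, when 9 of 18 genes were lower. With the rRNA share as a term it was -0.25, and that of acid secretion -0.22.

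Transcription factors and signalling genes below RANK had a median of -0.04 over 25 genes (0.05 without the 3 interferon-high libraries). At an unadjusted p under 0.05, 2 were lower, Tnfrsf11a and the kinase gene Tec, beside 6.52% lower over the 9813 genes. Lysosomal hydrolases and membrane proteins were lower in 37 of 49 genes, with a median of -0.11. In this list 7 were lower at an unadjusted p under 0.05 and 9 without overlap, beside 6.52% and 7.42% over the 9813 genes. The lysosomal median was -0.09, -0.19 and 0.00 within the pairs, -0.05 without the 3 interferon-high libraries and -0.04 without control 2 alone. Asah1, acid ceramidase, had 93.1, 95.8 and 94.9 FPKM in knockouts 1 to 3, against 116, 104 and 115 FPKM in controls 1 to 3. Cd63, a tetraspanin of late endosomes, had 193, 196 and 185 FPKM in knockouts 1 to 3, against 224, 215 and 215 FPKM in controls 1 to 3. Both were lower in every knockout library, by -0.24 and -0.19 with limma adjusted p-values of 0.366 and 0.379. In autophagy (35 genes, median -0.07, 5 lower at an unadjusted p under 0.05), the receptor gene Sqstm1 had 129, 127 and 145 FPKM in knockouts 1 to 3, against 152, 158 and 156 FPKM in controls 1 to 3, and Atg5 was lower by -0.21, both without overlap. The autophagy median was -0.02 without the 3 libraries, -0.03 without control 2 and -0.09 with the rRNA share as a term.

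Genes of the actin ring, through which osteoclasts seal onto bone, had more lower than higher members past an unadjusted threshold. Of the 30 integrin and podosome genes 4 were lower and 0 higher at an unadjusted p under 0.05, and of the 30 genes of actin nucleation 5 were lower and 0 higher, beside 6.52% lower over the 9813 genes. Without overlap, 2 integrin and podosome genes were lower and 1 higher, and 7 actin nucleation genes were lower and 0 higher. Over the 9813 genes 7.42% were lower and 4.95% higher without overlap. The medians were -0.05 and -0.08, and without the 3 interferon-high libraries 0.00 and -0.06. Cdc42, a small GTPase of podosome assembly, had 247, 251 and 263 FPKM in knockouts 1 to 3, against 309.9, 275 and 309 FPKM in controls 1 to 3. Actr3, a core subunit of the Arp2/3 complex that branches actin, had 209, 220.1 and 199 FPKM in knockouts 1 to 3, against 234, 233 and 235 FPKM in controls 1 to 3. Neither overlapped, at -0.23 and -0.16 with limma adjusted p-values of 0.366 and 0.404, and both kept their sign in all 3 pairs.

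Iron handling and defence against peroxide had more lower than higher genes below the unadjusted threshold. Steap4, a metalloreductase of endosomes, had 24.98, 25.7 and 27.8 FPKM in knockouts 1 to 3, against 33.1, 37.1 and 34.5 FPKM in controls 1 to 3. Tfrc, the transferrin receptor, had 193, 186 and 265 FPKM in knockouts 1 to 3, against 293, 245 and 352 FPKM in controls 1 to 3. Steap4 did not overlap and differed by -0.40 ± 0.0991 (limma adjusted p = 0.308), while for Tfrc knockout 3 was above control 2 and the difference was -0.47. Of 18 iron genes 4 were lower and 0 higher at an unadjusted p under 0.05, beside 6.52% lower over the 9813 genes. Among 32 genes of the pentose phosphate and glutathione systems 5 were lower and 0 higher, with a median of -0.14, and Prdx2 (peroxiredoxin), Sod1 (superoxide dismutase) and Cat (catalase) did not overlap, at -0.22, -0.23 and -0.30. The median of these 32 genes was -0.27, -0.14 and 0.06 within the pairs and -0.04 without the 3 interferon-high libraries, so its direction was not kept in pair 3.

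Chaperones were lower in 36 of 45 measured genes, with a median of -0.16, 6 lower and 1 higher at an unadjusted p under 0.05, and 11 lower without overlap. Over the 9813 genes 6.52% were lower by that p and 7.42% lower without overlap. Hspe1, the lid of the mitochondrial chaperonin, had 78.8, 81.3 and 80.04 FPKM in knockouts 1 to 3, against 113, 87.3 and 116 FPKM in controls 1 to 3. Dnajb9, a co-chaperone of the endoplasmic reticulum, had 14.4, 14.8 and 14.1 FPKM in knockouts 1 to 3, against 18.05, 16.5 and 18.2 FPKM in controls 1 to 3. Both were lower in every knockout library, by -0.38 and -0.27, with limma adjusted p-values of 0.416 and 0.358. The median was -0.25, -0.10 and -0.16 within the pairs and -0.14 without the 3 interferon-high libraries, and 28 of 45 genes were lower in all 3 pairs. With the rRNA share as a term it was -0.05. Of 28 genes of the unfolded protein response 6 were lower and 0 higher, and Hspa5, which encodes BiP, had 149, 156 and 163 FPKM in knockouts 1 to 3, against 179, 164 and 185 FPKM in controls 1 to 3.

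Protein turnover and traffic showed smaller medians. The proteasome list (45 genes) had a median of -0.09, 5 lower and 0 higher at an unadjusted p under 0.05 and 9 lower without overlap. The shares lower over the 9813 genes were 6.52% by that p and 7.42% without overlap. Psmc2, an ATPase of the proteasome base, had 16.2, 14.8 and 17.3 FPKM in knockouts 1 to 3, against 19.6, 18.2 and 20.97 FPKM in controls 1 to 3, a difference of -0.27 that was close to even in the pairs (-0.26, -0.28 and -0.27). Copg2, a subunit of the COPI coat, had 9.50, 10.04 and 10.7 FPKM in knockouts 1 to 3, against 13.6, 11.7 and 13.5 FPKM in controls 1 to 3, a difference of -0.33 ± 0.0803 without overlap. In the list of COP9 and coat proteins 22 of 27 genes were lower, with a median of -0.08. Fitted with the rRNA share, the proteasome and coat medians were -0.02 and -0.03.

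Translation and growth lists were near the median of all genes or slightly below it. Medians were -0.09 for 62 initiation and elongation factors, -0.10 for 39 aminoacyl-tRNA synthetases, -0.07 for 57 ribosome biogenesis genes and 0.01 for 79 cytosolic ribosomal proteins. Eef1a1, the elongation factor, had 2177, 2250 and 2436 FPKM in knockouts 1 to 3, against 3008, 2379 and 2971 FPKM in controls 1 to 3, and overlapped. Of the cell cycle lists, 47 genes of G1 and S had a median of -0.05 with 2 higher and 0 lower at an unadjusted p under 0.05. The 47 genes of G2 and mitosis had a median of -0.14 with 41 lower means but only 2 lower at an unadjusted p under 0.05. Over the 9813 genes 3.57% were higher and 6.52% lower by that p. The G2 and mitosis median was -0.05 without the 3 interferon-high libraries. A term for the rRNA share turned the medians to 0.07 for G1 and S, 0.03 for G2 and mitosis and 0.07 for ribosome biogenesis, and that of initiation and elongation factors was -0.04. Without the 3 libraries the cytosolic ribosomal proteins had -0.08.

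Immediate early genes, which respond within minutes to stimulation, leaned upward: 25 of 28 had a higher knockout mean, with a median of 0.22. Only Ier3 reached an unadjusted p under 0.05, with a higher knockout mean, beside 3.57% higher over the 9813 genes. Egr1, a zinc finger factor of growth signals, had 6.36, 6.61 and 3.39 FPKM in knockouts 1 to 3, against 3.08, 4.74 and 2.14 FPKM in controls 1 to 3. Junb, an AP-1 subunit, had 209, 214 and 186 FPKM in knockouts 1 to 3, against 149, 195 and 152 FPKM in controls 1 to 3. Fos, the AP-1 subunit that osteoclasts cannot form without, had 136, 132 and 116 FPKM in knockouts 1 to 3, against 116, 131 and 108 FPKM in controls 1 to 3. Egr1 and Junb were highest in knockouts 1 and 2, and Fos differed little. The list median was 0.25, 0.11 and 0.16 within the pairs and 0.11 without the 3 libraries, and 17 of 28 genes were higher in all 3 pairs, beside 1493 of 9813 over all genes. With the rRNA share as a term the median was 0.04.

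Inflammatory genes, named in the study's title, were not called. Of 23 measured cytokines and mediators 15 had a higher knockout mean with a median of 0.08, and 0 reached an unadjusted p under 0.05 in either direction. The median turned to -0.10 without the 3 interferon-high libraries, with 15 of 23 genes then lower. Il1b, the cytokine IL-1 beta, had 4.35, 7.95 and 1.66 FPKM in knockouts 1 to 3, against 2.05, 2.90 and 1.27 FPKM in controls 1 to 3. Nos2, inducible nitric oxide synthase, had 2.57, 2.47 and 0.229 FPKM in knockouts 1 to 3, against 0.221, 1.39 and 0.448 FPKM in controls 1 to 3. Ccl2, the monocyte chemokine, had 3.62, 6.24 and 1.51 FPKM in knockouts 1 to 3, against 1.27, 4.05 and 1.48 FPKM in controls 1 to 3. In all 3 genes knockout 1, knockout 2 and control 2 lay above the other libraries, and the genotypes overlapped. The 16 measured chemokines had a median of 0.21, which was 0.00 without knockout 2 and turned to -0.12 without the 3 interferon-high libraries.

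Among the regulators of NF-kB, 3 of 29 genes were higher and 1 lower at an unadjusted p under 0.05. Over the 9813 genes 3.57% were higher and 6.52% lower by that p. Nfkbid, an atypical nuclear inhibitor of NF-kB, had 29.4, 25.7 and 22.6 FPKM in knockouts 1 to 3, against 18, 23.2 and 20.8 FPKM in controls 1 to 3. Nfkbiz, a related co-regulator, had 3.46, 4.01 and 2.26 FPKM in knockouts 1 to 3, against 1.89, 2.81 and 1.80 FPKM in controls 1 to 3. Both overlapped, with log2 differences of 0.31 and 0.41. Nfkbia, the classical inhibitor, had 202, 203 and 207 FPKM in knockouts 1 to 3, against 191, 201 and 203 FPKM in controls 1 to 3, a difference of 0.04. Inhibitors of osteoclast formation had 23 of 30 genes higher, a median of 0.11, and 3 higher and 1 lower at an unadjusted p under 0.05, the lower one being Cx3cr1. The list median was 0.22, 0.04 and 0.00 within the pairs and -0.01 without the 3 interferon-high libraries, so its sign was not kept.

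MHC class II genes, which present antigen, had a higher knockout mean in 17 of 18 cases with a median of 0.14 and none at an unadjusted p under 0.05. H2-Ab1 had 74.2, 85.1 and 59.3 FPKM in knockouts 1 to 3, against 47.6, 85.7 and 41.4 FPKM in controls 1 to 3, and followed the interferon split in that control 2 was the highest library. Fc and inhibitory receptors had 40 of 58 genes higher and a median of 0.10, which turned to -0.03 without knockout 2 and to -0.11 without the 3 interferon-high libraries, with 43 of 58 genes then lower. Cd300ld3, a myeloid receptor of a gene cluster with close copies, had 0.565, 1.27 and 0.314 FPKM in knockouts 1 to 3, against 2.10, 1.85 and 1.61 FPKM in controls 1 to 3, lower without overlap by -0.77.

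Chromatin modifiers had more higher than lower genes below the unadjusted threshold, while their median was 0.00. Of 74 measured genes 10 were higher and 3 lower at an unadjusted p under 0.05, and 16 were higher and 3 lower without overlap. Over the 9813 genes 3.57% were higher and 6.52% lower by that p, and 4.95% higher and 7.42% lower without overlap. Kmt2d, an H3K4 methyltransferase of enhancers, had 12.1, 9.50 and 9.69 FPKM in knockouts 1 to 3, against 5.66, 8.26 and 7.39 FPKM in controls 1 to 3. Kdm6b, the H3K27 demethylase JMJD3, had 6.23, 5.90 and 5.44 FPKM in knockouts 1 to 3, against 4.16, 4.75 and 3.36 FPKM in controls 1 to 3. Setd1b, another H3K4 methyltransferase, had 6.41, 5.42 and 6.67 FPKM in knockouts 1 to 3, against 3.80, 4.98 and 4.84 FPKM in controls 1 to 3. All 3 were higher in every knockout library, by 0.50, 0.44 and 0.37, with a limma adjusted p of 0.366 each. Kmt2b, a further H3K4 methyltransferase, differed by 0.24.

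Zinc finger genes of the Zfp series numbered 254, with 11 higher and 5 lower at an unadjusted p under 0.05, 31 higher and 12 lower without overlap, and a median of 0.01. The shares over the 9813 genes were 3.57% higher and 6.52% lower by that p, and 4.95% and 7.42% without overlap. Zfp993, which has close copies on chromosome 4, had 4.15, 3.48 and 3.15 FPKM in knockouts 1 to 3, against 3.07, 1.49 and 1.122 FPKM in controls 1 to 3. Of 38 MAP kinases 4 were higher and 0 lower, among them Map3k10, a mixed-lineage kinase upstream of JNK, with 4.13, 4.73 and 3.93 FPKM in knockouts 1 to 3, against 2.60, 3.79 and 2.84 FPKM in controls 1 to 3. Its groups did not overlap, and the log2 difference was 0.38 with a limma adjusted p of 0.366. Solute carriers split evenly, with 9 higher and 8 lower of 170 at an unadjusted p under 0.05. Slc25a18, a mitochondrial glutamate carrier, had the largest difference among them (0.76), with 2.83, 2.65 and 1.74 FPKM in knockouts 1 to 3, against 0.891, 1.56 and 0.618 FPKM in controls 1 to 3. In the fit with the rRNA share the medians of the zinc finger, MAP kinase and solute carrier lists were 0.03, 0.02 and -0.05.

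Markers of other cells of the marrow were measured beside these results. Monocyte and macrophage markers (24 of 28 reached the limit) summed to 9868, 12254 and 7416 FPKM in knockouts 1 to 3, against 8514, 11970 and 7934 FPKM in controls 1 to 3, and followed the interferon split, as the list's scores of 0.21, 0.43 and -0.48 in knockouts 1 to 3 and -0.27, 0.43 and -0.31 in controls 1 to 3 show. Dendritic cell markers (12 of 16) summed to 576, 669 and 218 FPKM in knockouts 1 to 3, against 228, 584 and 274 FPKM in controls 1 to 3. For both lists the 3 lowest sums were those of knockout 3, control 1 and control 3, which were also the libraries with the 3 highest osteoclast sums, and their part in the osteoclast and interferon results was not tested. Neutrophil markers (19 of 20) summed to 2680, 3363 and 1742 FPKM in knockouts 1 to 3, against 2822, 3097 and 1991 FPKM in controls 1 to 3. Lymphocyte markers (8 of 20) reached 29.8 to 61.9 FPKM in sum, with Cd3d, Cd3e, Cd3g and Cd8a under 1 FPKM in all 6 libraries. Stromal and osteoblast genes (3 of 25) summed to 13.3 to 25.5 FPKM with Ibsp and Bglap2 at 0, and endothelial genes (3 of 14) to 6.56 to 11.4 FPKM.

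The same 3 subsets were applied to 27 lists to see which medians kept their sign. For the TCA cycle, fatty acid oxidation, ATP synthase, complex I, complexes II and III and chaperones, all 6 libraries, pair 2 alone and knockout 3 against controls 1 and 3 gave negative medians. So did the lists of lysosomal genes, G2 and mitosis, proteasome subunits and osteoclast identity. The ribosome biogenesis medians were -0.07 over all libraries and -0.06 among the interferon-low ones. In pair 2 that list was near 0, at -0.00058, with 29 genes lower and 28 higher. The osteoclast identity medians were -0.19, -0.24 and -0.04 in these 3 readings. For the immediate early genes, MHC class II, the clock list and chromatin modifiers all 3 readings were positive, though those of chromatin modifiers were between 0.00 and 0.02. The medians of the interferon, GTPase, IFI200 and MHC class I lists turned negative when the interferon-low libraries were compared with each other. Those of monocyte, dendritic cell, neutrophil and lymphocyte markers, glycolysis and cytosolic ribosomal proteins did too. For the interferon list this sign was fixed by the scores through which the libraries were chosen. The acid secretion and proton pump medians, negative over all libraries and in pair 2, were 0.01 and 0.00 among the interferon-low libraries.

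**Figure D4:**
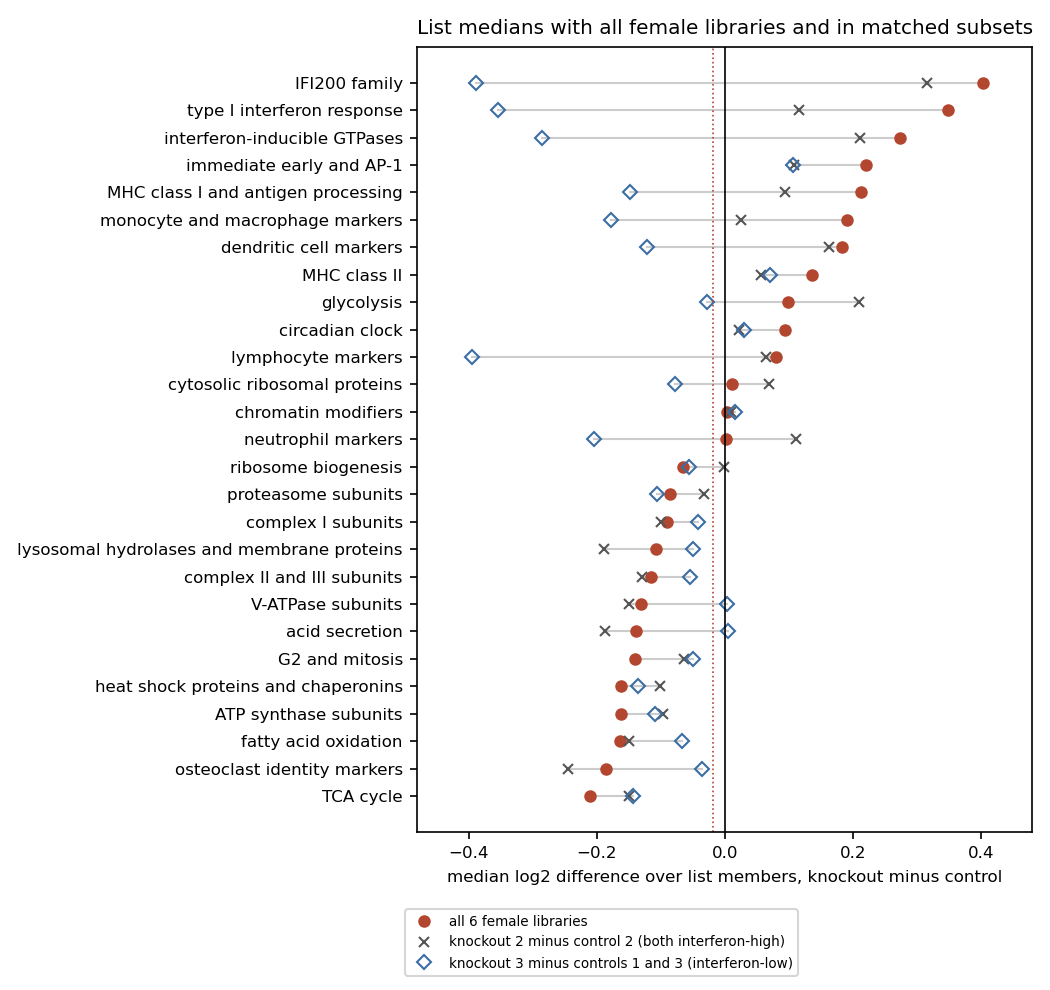
Median log2 difference, knockout minus control, over the members of each list (rows) in all 6 female libraries (filled circles), in pair 2 alone (crosses) and in knockout 3 against controls 1 and 3 (open diamonds), with a dotted line at the median of all 9813 genes. The TCA cycle lies left of the dotted line in all 3 readings, while the interferon lists have circles and crosses on the right and diamonds on the left.

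The female contrast was set against the male one, which uses separate control libraries, by the interaction term in the same limma fit. The difference of effects, female minus male, was called in 0 of the 9813 genes, beside 0.0% of all genes tested, with a smallest adjusted p of 0.180. At an unadjusted p under 0.05 the female effect was above the male one in 645 genes (6.57%, beside 7.49% of all genes tested) and below it in 1056 (10.8%, beside 9.47%). The voom fit called 0 as well.

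Several lists of growth and protein synthesis had lower medians in females than in males, though cytosolic ribosomal proteins did not (0.01 in females and 0.00 in males). Ribosome biogenesis had a median of -0.07 in females and 0.37 in males, and 41 of its 57 genes had a female effect below the male one at an unadjusted p under 0.05, with 0 above. G1 and S genes had -0.05 in females and 0.29 in males (23 of 47 below), chaperones -0.16 and 0.13 (24 of 45 below), and proteasome subunits -0.09 and 0.18 (19 of 45 below). For the TCA cycle the medians were -0.21 in females and 0.04 in males, with 8 of 24 genes below and 1 above. Over the 9813 genes 10.8% were below and 6.57% above by that p. Osteoclast identity genes had -0.19 in females and -0.03 in males, but the female median was -0.04 without the 3 interferon-high libraries.

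The opposite order was seen for monocyte and macrophage markers, with 0.19 in females (-0.18 without the 3 interferon-high libraries and -0.04 without knockout 2) and -0.47 in males. It was also seen for MHC class II, with 0.14 and -0.25, and for immediate early genes, with 0.22 and -0.21. Without the 3 interferon-high libraries the female medians of these 2 lists were 0.07 and 0.11. Cx3cr1 was lower in knockout libraries of both sexes, and the difference of 0.71 between the effects had a limma adjusted p of 0.227. Dbp, Per3 and Tef differed by -0.22, -0.08 and 0.11 in males, and the differences from the female effects had limma adjusted p-values of 0.221, 0.200 and 0.341. Per3 is again not counted, since in females it met the limit through knockout libraries only.

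Single genes with the lowest p for that difference included ribosome assembly factors. Brix1, a factor of large ribosomal subunit assembly, had 11.1, 11.9 and 12.8 FPKM in female knockouts 1 to 3, against 15.9, 12.8 and 15.3 FPKM in female controls 1 to 3. In males it had 17.99, 17.02 and 17.3 FPKM in knockouts 1 to 3, against 12.6, 11.98 and 14.4 FPKM in controls 1 to 3. The groups did not overlap in either sex and lay in opposite order, with log2 differences of -0.28 in females and 0.40 in males and a limma adjusted p of 0.180 for the difference. Med19, a Mediator subunit, and Mrto4, a ribosome assembly factor, had the same order, with -0.19 and -0.17 in females and 0.32 and 0.43 in males. Pot1b, a telomere protein gene, and Ift172, a gene of cilium transport, had the reverse, with 0.34 and 0.25 in females and -0.44 and -0.31 in males.

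**Figure D5:**
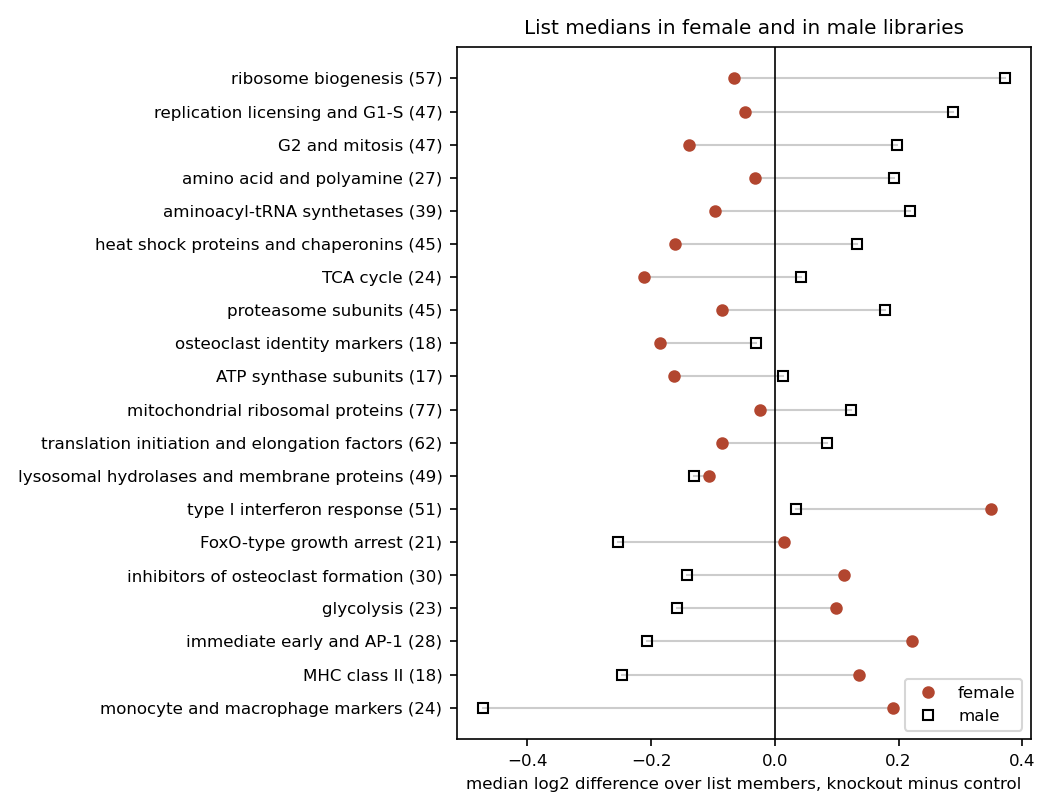
Median log2 difference, knockout minus control, over the measured members of 20 gene lists (rows, with their number), with filled circles for females and open squares for males. Ribosome biogenesis lies at -0.07 in females and 0.37 in males, and monocyte and macrophage markers at 0.19 in females (-0.18 without the 3 interferon-high libraries) and -0.47 in males.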

How the data were processed

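RNA-seq of total RNA was analysed from 1 table of FPKM, as deposited by the authors, with 55806 genes in 12 libraries. The tools and build named, per the submitters' processing notes and with no role, are featureCounts 1.5.0-p3, HISAT2 2.0.5 and mm10, while strand use was not given in the sources used here. Multiplied by gene length, 100% of the values were whole steps of 1 fragment (tolerance 0.01), from which depth was rebuilt. 1 emptied line of the table was not used here.

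The 12237 genes with 1 FPKM in at least 3 of 12 libraries were fitted with limma 3.58.1 in R 4.3.3 on log2(FPKM + 1), with a mean for each of 4 groups, a trend in the variances and two-sided tests. P-values were adjusted after Benjamini-Hochberg (threshold 0.05), and the code was tested on simulated data. This scale understates changes of low genes. Exact permutation used scipy 1.17.1. Alternatives were the pseudocount, filter, rescaling, variance model, voom on rebuilt fragments, the libraries in the fit, an rRNA term, the replicate number as a block, leaving out each library and leaving out the 3 interferon-high libraries.

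The replicate number pairs libraries by a shared batch in the labels. Deviations from the group means of same-numbered libraries correlated at -0.450, 0.693 and 0.537, and those of other pairs at -0.748 to 0.599. The block fits called 0 genes.

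The gene set, the 92 lists, the tests and the rule for named genes were chosen with earlier results of these data known. Named were Per1 and Cx3cr1, per direction 10 genes of lowest p without overlap and at least 2 FPKM, 10 of largest difference with unadjusted p under 0.05 and at least 5 FPKM, up to 4 genes of lowest p and 2 of highest FPKM in each list, and 5 of lowest p for the difference between the sexes. Further interferon, clock, TCA cycle and osteoclast genes were named after their values were seen. Values of some genes are not reported here. Promoter sequences are those of RefSeq on GRCm38.p6.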

Additional observations from a re-analysis of the deposited data

Results flagged for a closer look

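In 13 of the genes named above the female groups and the male groups did not overlap and lay in opposite order, and the difference of the effects, female minus male, was tested by the limma interaction term over all genes. It was below 0 for Brix1 (-0.68), Mrto4 (-0.60), Psmc2 (-0.52), Med19 (-0.51), Suclg2 (-0.46), Hpf1 (-0.38) and Acsl5 (-0.33), on the log2 scale, with knockout libraries lower than controls in females and higher in males. It was above 0 for Rgs11 (1.00), Zfp993 (0.99), Pot1b (0.78), Ift172 (0.55), Ppox (0.42) and Csnk1e (0.24), with knockout libraries higher than controls in females and lower in males. The limma adjusted p-values ran from 0.180 to 0.229, so none passed the threshold. For Csnk1e the female groups nearly touched, at 4.548 FPKM in knockout 3 and 4.546 FPKM in control 1.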

How the results depend on the processing

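The counts of called genes are over all genes tested, and the main value is 0 higher, 0 lower and 0 for the difference between the sexes. With no filter on low values 72 genes were higher, 3 lower and 16 called for the difference, and with no variance trend 3 were higher. Without the 3 interferon-high libraries 1 was higher, 1 lower and 1 called for the difference, and a pseudocount of 0.1 called 1 for the difference. Leaving out 1 library at a time gave 0 to 1 higher, 0 lower and 0 to 1 for the difference, the 1 in each case without female knockout 1. Both fits with the replicate block, shared by the sexes or within each sex, called 0 higher, 0 lower and 0 for the difference, so the pairing changed no call. None of the 9813 genes described above was called higher or lower under these settings. The cause of the calls made without a filter was not tested. Over the alternatives 141 values of list medians moved by more than the spread between replicates and 1604 did not, and for named genes 71 did and 1920 did not. Differences of genes near the floor of 3 fragments, 0.128 to 0.187 FPKM for 1 kb, were not detectable.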
